A study of Mus musculus with 48 samples.

Results

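The mitochondrial respiratory chain was described through 82 genes of its 5 complexes, measured in 48 mouse mammary tumors. The genes were chosen by symbol: those starting with Nduf followed by a, b, c, s or v, with Sdha to Sdhd, Uqcr, Cox4 to Cox8 or Atp5, without the Ndufaf assembly factors and without pseudogenes. They made up 82 of the 19938 genes that the array measured with a transcript cluster (a set of probes for a single transcript unit) of their own. Of the 82, 36 counted as complex I, 4 as complex II, 8 as complex III, 17 as complex IV and 17 as complex V. Cox7c, Ndufb4 and Ndufb4b lay only on clusters that name several genes, and Ndufb1 and Ndufb4c were not analysed here. The choice by symbol holds nuclear genes only, so the subunits encoded by mitochondrial DNA are outside it.

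The respiratory chain moves electrons from NADH and succinate to oxygen through complexes I to IV, which lie in the inner mitochondrial membrane and, except for complex II, pump protons across it. Complex V, the ATP synthase, lets the protons return and makes ATP. Most subunits are used by every cell, but several subunits of complex IV, cytochrome c oxidase, exist in ubiquitous forms and in forms of heart, skeletal muscle, brown fat or testis.

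Each tumor model is a mammary tumor cell line that had been implanted in the mammary fat pad of immunocompetent mice of its own strain, and 4 tumors per model were hybridized to Affymetrix mouse gene arrays, with 1 array per tumor. The 5 lines of spontaneous origin came from Balb/c mice (TS/A-E1, F311, EMT-6, D2A1, 4T1), and 5 lines from genetically engineered FVB/N mice (Met-1, MVT-1, M6, HRM-1, 6DT1). E0771 is a spontaneous C57Bl/6 line and R3T an engineered 129Sv line. No normal mammary gland was on these arrays, and the tumors of a model share their cell line, so that strain, origin and the line itself cannot be told apart within a model. The labels do not give the age of the hosts. Levels are log2 signal as deposited, so that a difference of 1 is a 2-fold change of signal. Values of different genes cannot be ranked against each other on an array, and all comparisons below are between tumors for the same gene. The tumors were bulk tissue, in which fewer cells of a type and less RNA per cell cannot be told apart.

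The values ran from 3.49 to 14.12, with array medians between 6.76 and 6.99, and 79 of the 82 genes had a mean above the median of the arrays. No 2 arrays were alike beyond a correlation of 0.9967. Genes of adipocytes, B cells or skeletal muscle stood more than 2.5 log2 units above the median of all tumors in 11 of the 48 tumors, in 1 or 2 tumors of 8 models. The tumors had been freed of surrounding and necrotic tissue and snap-frozen. Those tumors were 6DT1 replicates 2 and 3, E0771 replicates 1 and 3, F311 replicates 1 and 2, 4T1 replicate 3, EMT-6 replicate 3, M6 replicate 3, Met-1 replicate 2 and R3T replicate 2. Genes of luminal epithelium (Krt8, Krt18, Krt19, Epcam, Cdh1 and Elf5) averaged 7.3 in the lowest tumor and 11.6 in the highest. The average of this list lay below its mean over the 48 tumors in every tumor of D2A1, E0771, EMT-6 and MVT-1. Its single genes did not all do so. Krt8 had 12.89, 12.83, 12.89 and 13.02 in MVT-1 tumors, where 1 luminal gene was called higher and 3 lower than in the other models. Counts are given with all 48 tumors and, where they move by over 1.5 times or turn, with the other 37.

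Promoters are shown for members on which the comparisons below turn, beside the short motifs known from nuclear genes of respiration. The RefSeq promoter table (build GRCm38.p6, 250 bases before to 50 after each gene's start) held 72 promoters for 67 of the 82 members. The motifs, 3 in all, were searched on both strands: GCGCATGCG, the core of the site of NRF1, CCGGAAG, the core of ETS factors such as GABP, and AAGATGGCG, the core of YY1. The NRF1 core is nearly its own reverse complement, so that a site can match on both strands. It was present in 11.1% of the members' promoters and in 1.75% of all 32851 promoters of the table, the ETS core in 23.6% and 8.86%, and the YY1 core in 9.72% and 1.4%. The 8 genes with an NRF1 core were Ndufa8, Ndufa11, Uqcr11, Uqcrc1, Cox6a1, Atp5g2, Atp5k and Atp5l. The 7 genes with a YY1 core were Ndufa9, Ndufc1, Ndufs4, Ndufs6, Ndufs7, Atp5j and Atp5j2. In all of these 7 promoters the YY1 core stood on the strand of the gene, and in 6 of them between 22 and 35 bases after the start, the exception being Atp5j, with the core upstream of it. In the sequences that follow, motif cores are in capitals and the strand shown is that of the gene.
Ndufs5, chr4:123718137-123718436, minus strand, no core: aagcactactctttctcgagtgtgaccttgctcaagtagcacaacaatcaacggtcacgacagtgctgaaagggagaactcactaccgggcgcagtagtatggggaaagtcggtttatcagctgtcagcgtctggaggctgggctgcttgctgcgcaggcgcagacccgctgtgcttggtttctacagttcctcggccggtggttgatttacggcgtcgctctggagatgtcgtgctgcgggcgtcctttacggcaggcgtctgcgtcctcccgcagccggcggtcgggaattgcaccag
Ndufa9, chr6:126849095-126849394, minus strand, YY1 core: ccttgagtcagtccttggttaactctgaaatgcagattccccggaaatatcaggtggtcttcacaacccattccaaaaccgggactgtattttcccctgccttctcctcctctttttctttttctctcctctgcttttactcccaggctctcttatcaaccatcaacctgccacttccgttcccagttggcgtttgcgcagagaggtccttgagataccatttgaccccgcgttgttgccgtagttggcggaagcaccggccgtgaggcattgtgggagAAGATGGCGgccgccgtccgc
Uqcr11, chr10:80406772-80407071, minus strand, ETS and NRF1 cores: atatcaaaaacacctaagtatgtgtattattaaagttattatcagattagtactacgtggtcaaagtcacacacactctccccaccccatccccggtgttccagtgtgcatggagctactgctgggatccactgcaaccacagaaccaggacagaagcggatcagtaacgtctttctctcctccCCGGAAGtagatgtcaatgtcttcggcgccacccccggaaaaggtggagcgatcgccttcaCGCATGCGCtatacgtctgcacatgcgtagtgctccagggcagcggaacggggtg
Cox8a, chr19:7217567-7217866, minus strand, 2 ETS cores: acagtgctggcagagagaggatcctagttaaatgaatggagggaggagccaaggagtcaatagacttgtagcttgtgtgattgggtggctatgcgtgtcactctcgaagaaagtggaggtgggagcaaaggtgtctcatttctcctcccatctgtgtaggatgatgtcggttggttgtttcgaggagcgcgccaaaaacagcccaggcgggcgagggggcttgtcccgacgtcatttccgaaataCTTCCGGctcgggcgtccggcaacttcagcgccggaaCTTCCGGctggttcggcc
Cox8b, chr7:140900397-140900696, minus strand, no core: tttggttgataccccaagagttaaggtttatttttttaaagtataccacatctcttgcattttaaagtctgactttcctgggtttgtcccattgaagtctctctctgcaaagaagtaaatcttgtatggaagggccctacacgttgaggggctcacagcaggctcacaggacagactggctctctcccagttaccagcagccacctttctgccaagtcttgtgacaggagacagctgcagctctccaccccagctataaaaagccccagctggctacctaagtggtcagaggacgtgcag
Atp5l, chr9:44920693-44920992, minus strand, NRF1 core and 2 ETS cores: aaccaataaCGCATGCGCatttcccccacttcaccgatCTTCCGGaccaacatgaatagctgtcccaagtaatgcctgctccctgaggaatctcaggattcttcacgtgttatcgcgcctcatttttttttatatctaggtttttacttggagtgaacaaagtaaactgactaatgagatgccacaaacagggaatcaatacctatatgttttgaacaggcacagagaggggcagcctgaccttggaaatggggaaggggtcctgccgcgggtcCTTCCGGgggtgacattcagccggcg

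A core of at least 1 of the 3 motifs was found in 27 of the 67 members with a promoter and in none of the other 40, and both groups of members varied among the models. The median range between the highest and lowest model mean was 0.66 for the 27 and 0.57 for the 40. A motif match is a run of letters and was not tested as a binding site.

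The first comparison asked which subunits differed among the 12 models. In limma's F-test, 75 of the 82 members differed at an adjusted p under 0.05, where 70.4% of all genes did. The 7 members that did not pass were Cox6a2, Cox7a1, Cox7b2, Cox8b and Cox8c, all forms of complex IV known from muscle, brown fat or testis, together with Ndufb8 of complex I and Atp5e of complex V. The model means of a member lay within 0.59 (median over members of highest minus lowest), against 0.68 for all genes and 0.85 for genes with a mean signal of at least 9. Of the variance of a member, 65.3% lay among the models (median), against 62.4% for all genes and 74.5% for genes with a mean signal of at least 9. The SD between tumors of a model was 0.14 (median), against 0.15 for all genes. For the 64 members with a mean signal of at least 9 the median range was also 0.59 and the share among models 66.4%, and the differences from other genes were not tested. Among members that passed, the narrowest of each complex were Ndufv2 (core of the NADH-oxidizing part of complex I), which spanned 0.34, Sdhb (iron-sulfur subunit of complex II) 0.41, Uqcrc1 (core protein of complex III) 0.34, Cox8a (a small subunit of complex IV) 0.33 and Atp5b (the catalytic beta subunit of the ATP synthase) 0.20 log2 units over the 12 models.

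The widest spans, leaving out genes that failed the F-test, were those of Ndufs5 (2.23), Ndufb9 (1.37) and Ndufa1 (1.24) in complex I, Sdhc (0.88), Sdha (0.81) and Sdhd (0.76) in complex II, Uqcr11 (1.05), Uqcrh (0.83) and Uqcrb (0.60) in complex III, Cox4i2 (0.81), Cox6a1 (0.71) and Cox6b1 (0.66) in complex IV and Atp5l (1.17), Atp5h (0.98) and Atp5md (0.78) in complex V. Among the 75 members that passed, the highest model was 6DT1 for 25 and Met-1 for 20, and the lowest model was 4T1 for 12, M6 for 12, F311 for 9 and R3T for 9.

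**Figure D1:**
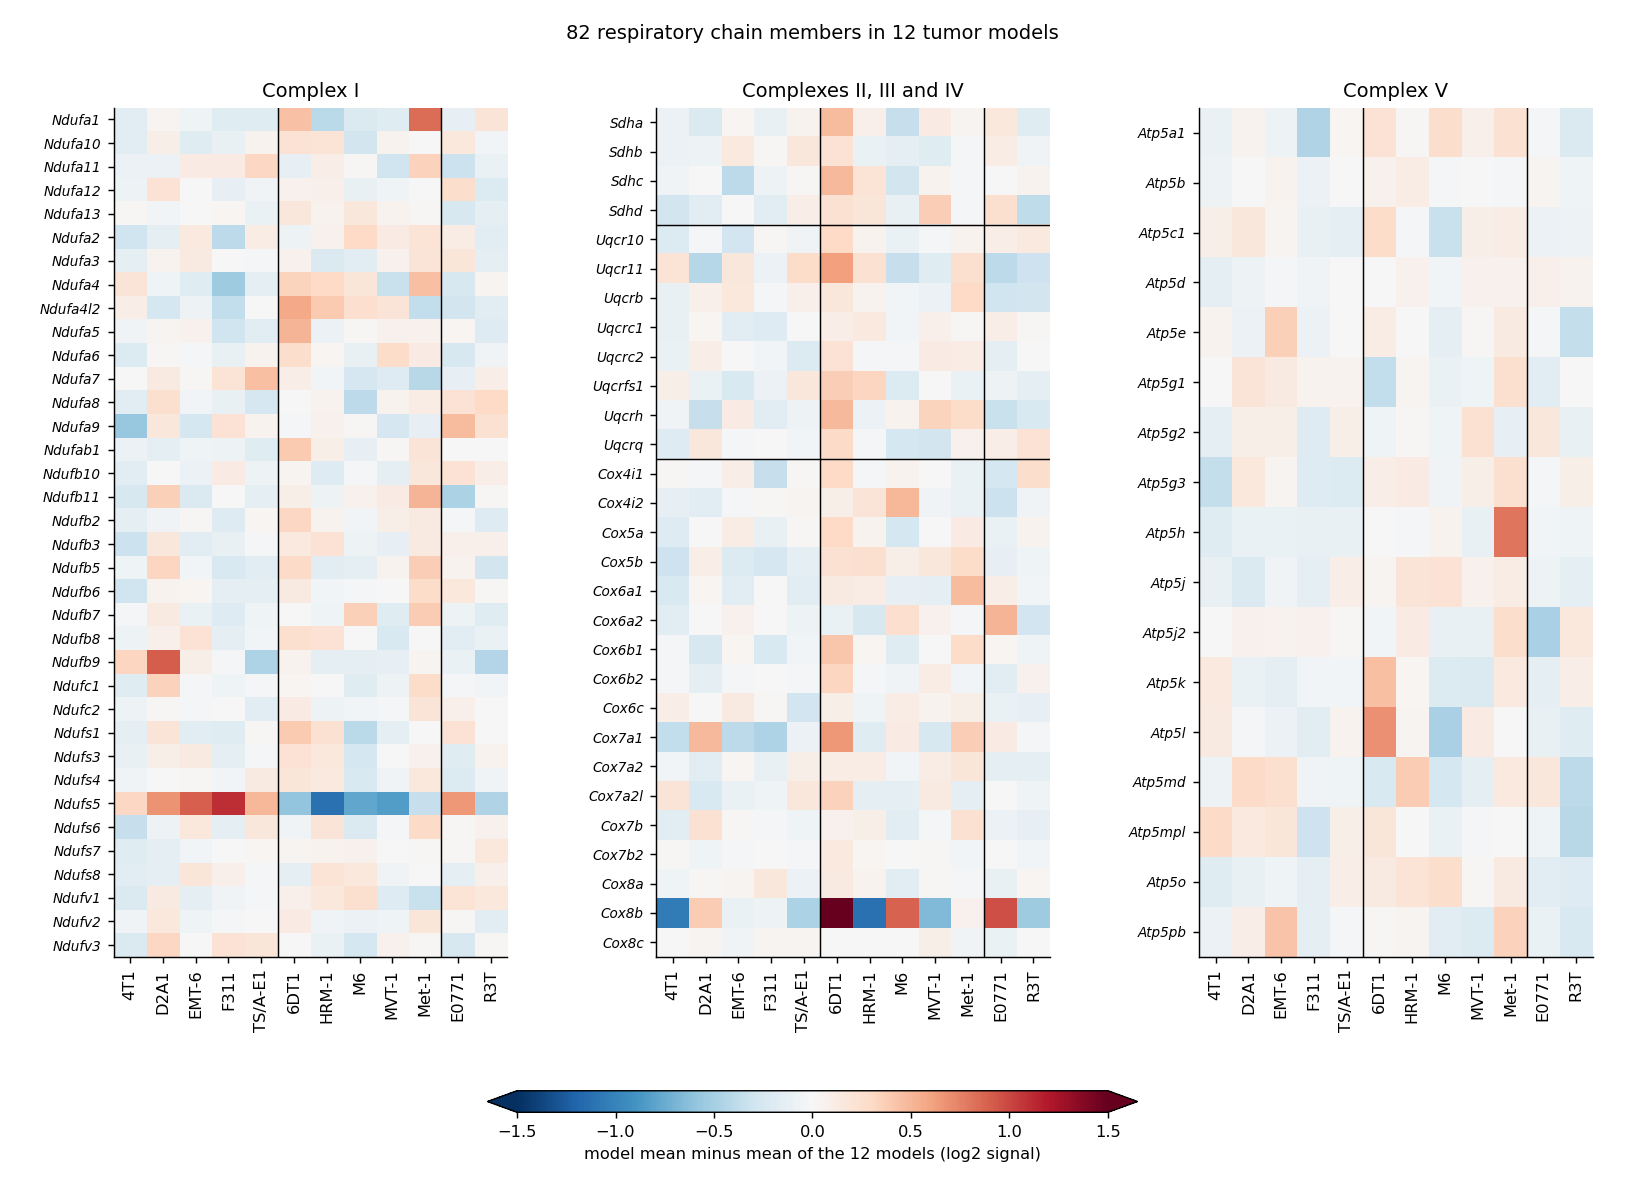
Each row is a member and each column a model; color gives the model mean of 4 tumors minus the mean of the 12 model means, in log2 signal, and the vertical lines separate Balb/c models, FVB/N models and the other 2. Ndufs5 lies above its mean in all 5 Balb/c models and E0771, and most other rows stay within 0.5 of their mean.

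Each model was then set against the mean of the other 11. In 6DT1 tumors 38 members were higher and 2 lower, where 15.6% of all genes were higher and 19.9% lower. In Met-1 tumors 31 were higher and 4 lower (all genes, 14.6% higher and 17.2% lower). Among the members called, the larger part was lower in 4T1 tumors, with 2 higher and 24 lower (all genes, 11.8% and 12.8%), in F311 tumors, with 4 higher and 18 lower (7.79% and 9.76%), in M6 tumors, with 8 higher and 23 lower (18.9% and 17.7%), and in R3T tumors, with 6 higher and 22 lower (13.2% and 10%). D2A1 tumors had 15 members higher and 9 lower (all genes, 13.4% and 14.1%), HRM-1 tumors 14 and 5 (14.8% and 10.1%), EMT-6 tumors 5 and 8 (11.3% and 12.6%), TS/A-E1 tumors 3 and 10 (9.62% and 6.57%), MVT-1 tumors 5 and 9 (11.6% and 8.97%) and E0771 tumors 12 and 20 (19.8% and 17.8%). The median difference of the 82 members was 0.15 in 6DT1 and 0.12 in Met-1, against 0.0026 and -0.035 for all genes, and the lowest was -0.10 in 4T1, against -0.036 for all genes.

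Some splits depended on the scale or on the tumors used, and the shares of all genes higher and lower under the same setting follow each in parentheses. With each array centered on its median, 27 members were higher and 4 lower in D2A1 (15.8% and 9.73%), 22 and 10 in E0771 (26.9% and 11.9%) and 21 and 6 in Met-1 (11.3% and 23%). The split was 2 and 33 in R3T (8.84% and 14.2%), 2 and 23 in F311 (5.5% and 9.53%) and 6 and 7 in MVT-1 (9.81% and 6.6%). The direction in E0771 thus turned, but to shares near those of all genes, so that it is not particular to the members. Without the 11 tumors, 27 members were higher and 14 lower in D2A1 (17.1% and 20.7%), 18 and 9 in EMT-6 (16% and 18%), 12 and 15 in TS/A-E1 (14.9% and 13.9%), 28 and 5 in HRM-1 (18.9% and 16.7%) and 14 and 15 in MVT-1 (16.8% and 17.8%). The split there was 10 and 31 in E0771 (22% and 18.6%), 7 and 27 in 4T1 (14% and 18%) and 11 and 23 in R3T (18.6% and 15.5%). Leaving out 1 tumor lowered the total called to 14 members in 4T1 (without replicate 2), 12 in F311 (without replicate 4), 22 in Met-1 (without replicate 1), 16 in R3T (without replicate 1), 8 in EMT-6 (without replicate 4), 8 in TS/A-E1 (without replicate 1) and 12 in HRM-1 (without replicate 2). For these fits the share of all genes called was not worked out.

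**Figure D2:**
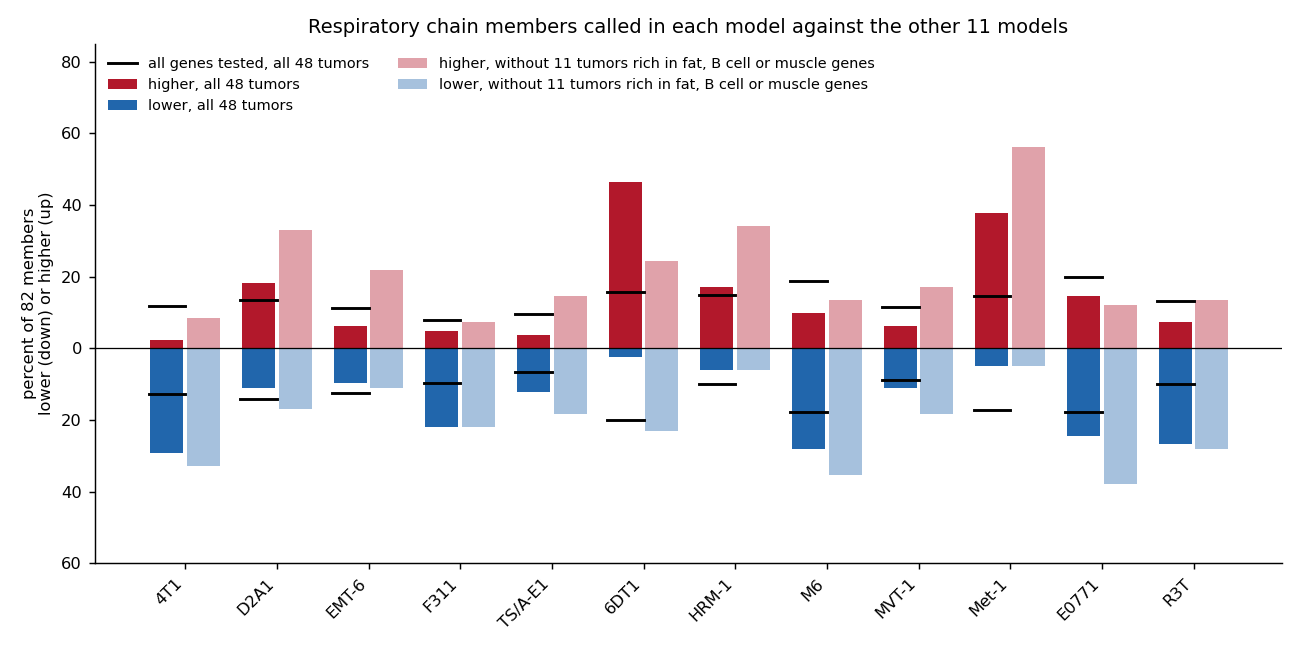
Bars give the percent of the 82 members called higher (up) or lower (down) in each model against the other 11, dark for all 48 tumors and light for the 37 tumors left without those rich in fat, B cell or muscle genes; black lines give the percent of all 19938 genes with all tumors. 6DT1 has 38 members higher with all tumors, and 20 higher and 19 lower without its 2 fat-rich tumors, while Met-1 has 31 and 46 higher.

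In 6DT1 tumors the members of complexes II and III were higher in the larger share. All 4 members of complex II and 6 of 8 of complex III passed as higher, with 13 of 36 of complex I, 9 of 17 of complex IV and 6 of 17 of complex V. Sdhc, a membrane anchor of succinate dehydrogenase, had 11.33, 11.39, 11.14 and 11.21 in the 4 6DT1 tumors, against 10.27 to 11.05 (median 10.75) in the other 44. These 4 tumors lay above every other tumor, by 0.53 ± 0.06 (SE) against the other models (adjusted p = 8.16e-09). Sdha, the flavoprotein subunit that oxidizes succinate, had 11.07, 11.90, 11.82 and 11.04 in 6DT1 tumors, against 10.55 to 11.70 (median 10.95) elsewhere. Only replicates 2 and 3 were high, and the difference was 0.52 ± 0.10 (SE, adjusted p = 0.000174). Uqcr11, a small subunit of complex III, had 10.58, 10.87, 10.73 and 10.53 in 6DT1 tumors, against 9.33 to 10.65 (median 10.03) elsewhere, a difference of 0.68 ± 0.11 (SE, adjusted p = 1.09e-05). Uqcrh, the hinge protein beside cytochrome c1, had 11.39, 11.48, 11.26 and 11.28 in 6DT1 tumors, against 10.36 to 11.32 (median 10.82) elsewhere, a difference of 0.53 ± 0.07 (SE, adjusted p = 1.05e-07). All 4 tumors were high in both genes, with an overlap of the groups at their edges. Atp5l, subunit g in the membrane part of the ATP synthase, had 10.15, 9.86, 9.62 and 9.73 in 6DT1 tumors, against 8.32 to 9.65 (median 9.09) elsewhere, a difference of 0.75 ± 0.09 (SE, adjusted p = 4.38e-08). Atp5g1, which encodes a copy of the rotating c subunit, went the other way, at 11.65 in 6DT1 tumors and 12.05 in the other models (a difference of -0.40 ± 0.07, SE, adjusted p = 3.08e-05).

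The 4 6DT1 tumors did not share a level. The median over all 82 members, each taken relative to its mean over 48 tumors, was 0.32 in replicate 2 and 0.29 in replicate 3, and -0.03 in both replicate 1 and replicate 4. Replicates 2 and 3 also had high adipocyte genes, with an adipocyte score (mean over 7 genes, relative to the median tumor) of 4.07 and 4.39, against -1.11 in replicate 1 and -1.20 in replicate 4. Other cell type lists, each relative to its genes' means, were split in the same way. Luminal epithelium genes lay at 1.17 and 0.84 in replicates 2 and 3 and at -1.12 and -1.06 in replicates 1 and 4, basal and myoepithelial genes at 1.93 and 2.97 and at -0.95 and -1.05, and endothelial genes at 1.20 and 1.34 and at -0.55 and -0.80. Proliferation genes lay at -0.98 and -1.61 in replicates 2 and 3 and at -0.26 and 0.08 in replicates 1 and 4. Epcam, an epithelial adhesion molecule, had 10.15 and 10.47 in replicates 2 and 3 and 5.73 and 5.96 in replicates 1 and 4. Krt8, a keratin of the same luminal list, did not follow this split. It had 12.59 and 11.88 in replicates 2 and 3 and 12.71 and 12.57 in replicates 1 and 4. Adipoq, the adipocyte hormone adiponectin, had 12.55 and 12.74 in replicates 2 and 3 and 6.58 and 6.67 in replicates 1 and 4. Ucp1, the uncoupling protein of brown fat, had 10.59 in replicate 2, 6.51 in replicate 3, 5.67 in replicate 1 and 5.55 in replicate 4. Without the 11 tumors, 6DT1 kept 2 tumors and had 20 members higher and 19 lower, where 16.4% of all genes were higher and 19.2% lower. Complex I then had 4 of 36 members higher and 13 lower, and complex II 3 of 4 and complex III 4 of 8 higher with none lower. Complex IV had 5 of 17 higher and 1 lower, and complex V 4 of 17 higher and 5 lower. Atp5l (0.87), Uqcr11 (0.57), Atp5g1 (-0.33) and Ndufs5 (-1.0) each kept its direction and its call there, with adjusted p between 4.53e-07 and 0.000995. The part of these cell types in the counts was not tested beyond leaving those tumors out.

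**Figure D3:**
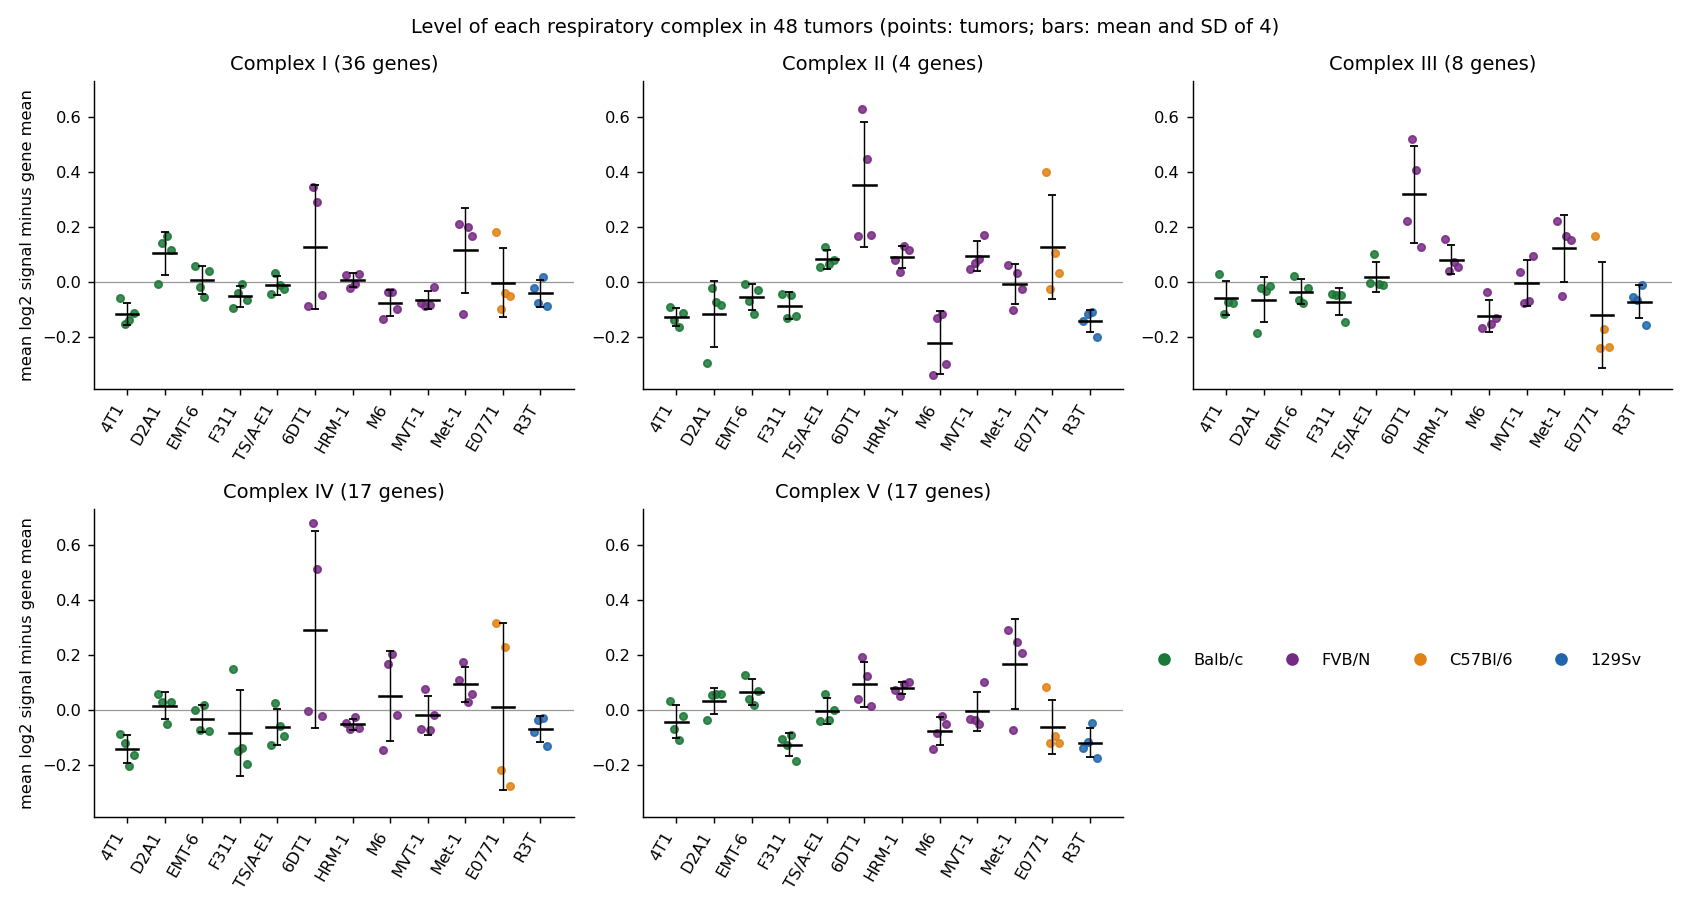
Points are tumors and give the average, over the members of a complex, of the log2 signal relative to each gene's mean of 48 tumors; bars give the mean and SD of the 4 tumors of a model, and colors give the strain. Complexes II and III lie above 0 in all 4 6DT1 tumors (0.17 to 0.63 and 0.13 to 0.52), and Met-1 replicate 2 lies below the other 3 Met-1 tumors in complex I (-0.11 against 0.17 to 0.21).

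In Met-1 tumors the higher members lay mainly in complexes I and V, with 15 of 36 and 9 of 17, against 2 of 8 in complex III, 5 of 17 in complex IV and none of 4 in complex II. Atp5h, subunit d of the peripheral stalk of the ATP synthase, had 12.42, 11.75, 12.42 and 12.32 in Met-1 tumors, against 11.16 to 11.68 (median 11.35) in the other 44. Every Met-1 tumor lay above every other tumor, and the difference was 0.87 ± 0.07 (SE, adjusted p = 1.19e-12). Ndufa1, an accessory subunit encoded on the X chromosome and needed for the assembly of complex I, had 8.95, 7.84, 8.70 and 8.61 in Met-1 tumors, against 7.04 to 8.45 (median 7.58) elsewhere, a difference of 0.91 ± 0.13 (SE, adjusted p = 2.91e-07). Ndufb11, another X-linked accessory subunit of complex I, had 12.17, 11.73, 12.10 and 12.06 in Met-1 tumors, against 10.87 to 11.92 (median 11.48) elsewhere, and was higher by 0.56 ± 0.07 (SE, adjusted p = 4.82e-08). Cox6a1, the ubiquitous form of a complex IV subunit, had 11.18, 10.38, 10.98 and 11.02 in Met-1 tumors, against 10.09 to 10.98 (median 10.34) elsewhere (0.52 ± 0.09, SE, adjusted p = 2.37e-05). Replicate 2 was the lowest of the 4 Met-1 tumors in each of these genes. That tumor had a B cell score of 4.58 and an adipocyte score of 2.71, and its median over all members was -0.06, against 0.13 to 0.18 in the other 3 Met-1 tumors. Without the 11 tumors, Met-1 had 46 members higher and 4 lower (all genes, 19.5% and 23.8%), with 22 of 36 in complex I and 11 of 17 in complex V. Ndufa7, an accessory subunit of complex I, was lower in Met-1 tumors, at 9.10, against 9.55 in the other models (-0.45 ± 0.07, SE, adjusted p = 3.68e-06), and highest in TS/A-E1 tumors (9.97), where all 4 tumors lay between 9.89 and 10.03 and above the other 44 (9.0 to 9.83).

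In 4T1 tumors 12 of 36 members of complex I, 5 of 17 of complex V and 4 of 17 of complex IV were lower. Ndufa9, an accessory subunit near the junction of the 2 arms of complex I, had 9.93, 9.79, 9.85 and 9.75 in 4T1 tumors, against 10.04 to 11 (median 10.45) in the other 44. No 4T1 tumor overlapped with the rest, and the difference was -0.62 ± 0.08 (SE, adjusted p = 2.05e-07). The same gene was highest in E0771 tumors, with 11, 10.90, 10.77 and 10.82 there, against 9.75 to 10.81 (median 10.39) elsewhere (0.51 ± 0.08, SE, adjusted p = 2.2e-06). Atp5g3, another copy of the c subunit, was lower in 4T1 tumors, at 11.04, against 11.42 in the other models (-0.39 ± 0.07, SE, adjusted p = 2.79e-05). Atp5mpl, a small ATP synthase protein, was higher there, at 10.06, against 9.75 (0.31 ± 0.06, SE, adjusted p = 0.000296).

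Ndufb9, an accessory subunit in the membrane arm of complex I, was highest in D2A1 tumors. It had 11.73, 11.68, 11.88 and 11.92 in D2A1 tumors, against 10.32 to 11.45 (median 10.78) in the other 44, so that the groups did not overlap (0.99 ± 0.10, SE, adjusted p = 8.72e-10). Next came 4T1 tumors (11.33, 11.19, 11.12 and 11.21), and the lowest were TS/A-E1 tumors (10.32, 10.58, 10.46 and 10.36) and R3T tumors (10.51, 10.57, 10.32 and 10.39), which overlapped with each other. 6DT1 tumors were split, with 11.45 and 11.42 in the fat-rich replicates 2 and 3 and 10.46 and 10.44 in replicates 1 and 4. In D2A1 tumors, 10 of the 15 higher members belonged to complex I, while Uqcr11 (-0.47 ± 0.11, SE, adjusted p = 0.00105) and Uqcrh (-0.37 ± 0.07, SE, adjusted p = 1.95e-05) of complex III were lower.

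In the other models, single subunits stood out. Sdhd, a membrane anchor of complex II beside Sdhc, had 10.72, 10.73, 10.75 and 10.78 in MVT-1 tumors, all above the other 44 (9.91 to 10.70, median 10.38), a difference of 0.41 ± 0.06 (SE, adjusted p = 1.81e-06). Uqcrh was higher in MVT-1 tumors as well, by 0.36 ± 0.07 (SE, adjusted p = 6.02e-05). Sdhd was lowest in R3T tumors, with 10.04, 9.93, 10.07 and 9.91 there (-0.42 ± 0.06 against the other models, SE, adjusted p = 6.38e-07). Sdhc was lower in EMT-6 tumors, at 10.38, against 10.81 in the other models (-0.43 ± 0.06, SE, adjusted p = 4.11e-07). Atp5pb, subunit b of the stalk of the ATP synthase, was higher in EMT-6 tumors, at 11.26, against 10.79 (0.47 ± 0.07, SE, adjusted p = 3.3e-06). F311 tumors were lower in Atp5a1, the alpha subunit of the ATP synthase, at 11.26, against 11.75 (-0.49 ± 0.06, SE, adjusted p = 4.41e-07), and in Ndufa4, at 9.22, against 9.81 (-0.58 ± 0.11, SE, adjusted p = 0.000181). Ndufa4 was counted with complex I by its symbol and is known as a subunit of complex IV. Cox6c was lower in TS/A-E1 tumors, at 12.49, against 12.80 (-0.31 ± 0.06, SE, adjusted p = 0.000121), and the 4 tumors (12.40 to 12.54) lay below the other 44 (12.56 to 13.11).

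HRM-1 tumors were higher in Uqcrfs1, the Rieske iron-sulfur protein of complex III, at 9.02, against 8.67 in the other models (0.35 ± 0.07, SE, adjusted p = 0.000151), and in Atp5md, a small membrane subunit of the ATP synthase, at 11.47, against 11.05 (0.42 ± 0.12, SE, adjusted p = 0.00596, which was 0.06 without HRM-1 replicate 1). M6 tumors were higher in Ndufb7 of complex I, at 9.81, against 9.42 (0.39 ± 0.06, SE, adjusted p = 1.48e-06), and lower in Atp5l, at 8.67, against 9.19 (-0.53 ± 0.09, SE, adjusted p = 6.33e-06). E0771 tumors were lower in Atp5j2, subunit f of the ATP synthase, at 10.83, against 11.36 (-0.53 ± 0.07, SE, adjusted p = 1.95e-08), and in Ndufb11, at 11.03, against 11.55 (-0.52 ± 0.07, SE, adjusted p = 1.36e-07). R3T tumors were higher in Ndufa8 of complex I, at 11.03, against 10.70 (0.33 ± 0.06, SE, adjusted p = 0.000108), and in Cox4i1, at 10.91, against 10.62 (0.29 ± 0.06, SE, adjusted p = 0.000494).

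Ndufs5, an accessory subunit of complex I named for the iron-sulfur fraction in which it was found, was the member with the widest span and was among the most changed members in 11 of the 12 models. Balb/c tumors of the 5 spontaneous lines had 8.17, 7.93, 8.02 and 7.92 (4T1), 8.15, 8.49, 8.52 and 8.31 (D2A1), 8.92, 8.68, 8.19 and 8.56 (EMT-6), 8.10, 9.02, 9.09 and 9.0 (F311) and 8.04, 8.46, 8.25 and 8.0 (TS/A-E1). FVB/N tumors of the 5 engineered lines had 6.82, 7.43, 7.45 and 6.73 (6DT1), 6.66, 6.91, 5.86 and 6.85 (HRM-1), 6.84, 6.91, 6.99 and 6.92 (M6), 6.94, 6.70, 6.97 and 6.80 (MVT-1) and 7.39, 7.09, 7.60 and 7.31 (Met-1). The lowest of the 20 Balb/c tumors (7.92) lay above the highest of the 20 FVB/N tumors (7.60). The C57Bl/6 line E0771 had 8.46, 8.24, 8.36 and 8.34, within the range of the Balb/c tumors, and the 129Sv line R3T had 7.07, 7.40, 7.36 and 7.15, within that of the FVB/N tumors. E0771 is a spontaneous line and R3T an engineered line, and each is the only line of its strain. Between Balb/c and FVB/N models strain and origin coincide. Strain, origin and the line itself thus cannot be told apart in any of the 12 models.

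With the model as the replicate, Ndufs5 averaged 8.39 ± 0.32 in Balb/c models and 6.96 ± 0.29 in FVB/N models (SD, n = 5 each), a difference of 1.43 ± 0.18 (SE, limma, adjusted p = 0.0167). The exact 2-sided permutation test over the model means gave p = 0.00794, the smallest that 5 against 5 models allow. Any gene whose model means do not overlap between the groups gives this value. It is not adjusted for the choice of Ndufs5 and adds nothing to the separation shown above. Ndufs5 was the only member called in the limma test, 1 of 82, where 0.191% of all genes were called in either direction. The adjusted p was 0.0676 without EMT-6, 0.053 without M6 and 0.0545 without MVT-1, with differences of 1.38, 1.42 and 1.41, and 0.0519 in the test that the methods name, run on the same model means. A further cluster, annotated to Ndufs5 and its pseudogene Ndufs5-ps together, did not separate the groups. It averaged 7.94 ± 0.23 in Balb/c models and 7.79 ± 0.18 in FVB/N models (SD, n = 5 each, difference 0.15, exact permutation p = 0.254). Which probe sequences the clusters hold, and whether a strain's own sequence differs under them, was not tested.

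**Figure D4:**
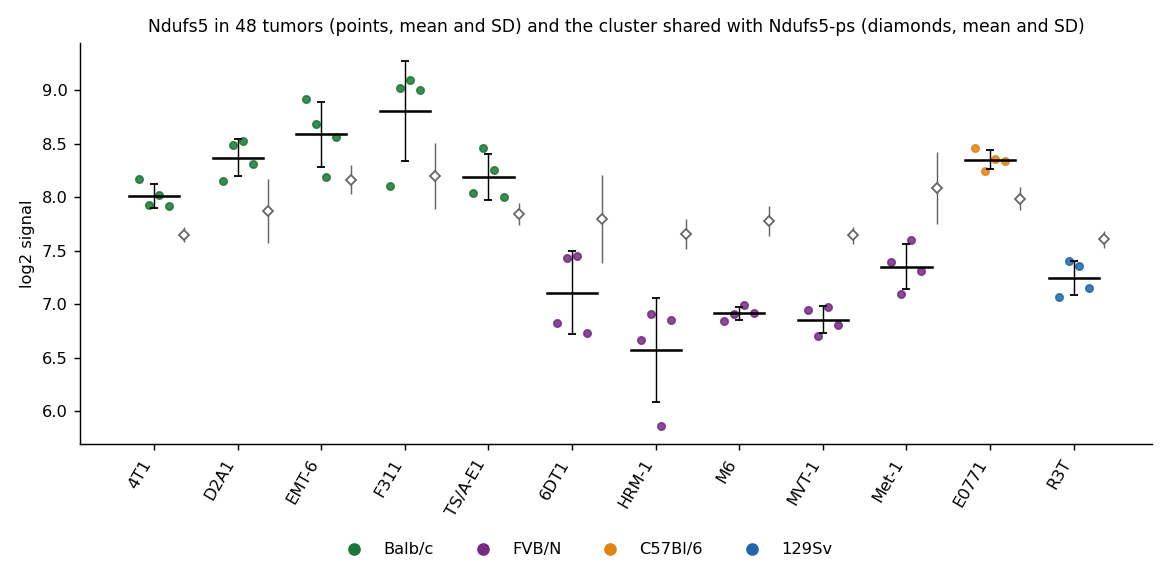
Colored points are the Ndufs5 log2 signal of single tumors with the mean and SD of each model (n = 4), colored by strain; open diamonds are the mean and SD of the cluster annotated to Ndufs5 and Ndufs5-ps together. The 20 Balb/c tumors lie between 7.92 and 9.09 and the 20 FVB/N tumors between 5.86 and 7.60, while the diamonds of both overlap.

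None of the other 81 members was called between Balb/c and FVB/N models. Of all 82, 65 (79.3%) had a lower mean in Balb/c and 17 a higher one, where 57.4% of all genes had a lower one. The median difference was -0.09 for the members and -0.01 for all genes. An unadjusted p under 0.05 was found for 14 members (17.1%) and for 8.01% of all genes, and whether the members differ from other genes in this was not tested. Cox5b, a nuclear subunit of complex IV, averaged 11.71 in Balb/c models and 12.07 in FVB/N models, a difference of -0.36 ± 0.08 (SE, adjusted p = 0.157). It was named after its values were seen, since it passed (adjusted p = 0.0298) without D2A1 and in a fit over all 40 tumors with the model as a random block (adjusted p = 0.000159).

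The muscle and brown fat forms of complex IV varied mainly between tumors of the same model: 22.7% of the variance of Cox8b, 30.5% of that of Cox7a1 and 21.5% of that of Cox6a2 lay among the models. Cox8b, made in heart, skeletal muscle and brown fat, had an SD of 1.76 between tumors of a model (pooled over the 12), against 0.08 for Cox8a, its ubiquitous counterpart. Cox8b had 5.92, 12.33, 11.87 and 6.17 in 6DT1 tumors, 10.95, 6.24, 10.20 and 5.85 in E0771 tumors, 10.68, 6.24, 6.21 and 5.96 in F311 tumors and 6.09, 10.18, 9.39 and 7.25 in M6 tumors. In each of these models 1 or 2 tumors were high and the others low, and the F-test over the models did not pass (adjusted p = 0.498). In HRM-1 tumors Cox8b was even, at 6.17, 6.19, 6.25 and 6.28. Cox8a lay between 11.49 and 12.02 in all of the tumors, and its F-test passed (adjusted p = 0.000131).

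Cox7a1, the form of heart, muscle and brown fat beside the ubiquitous Cox7a2, had 6.79, 10.43, 8.40 and 7.44 in 6DT1 tumors, 8.61, 6.94, 8.66 and 6.75 in E0771 tumors and 7.13, 8.60, 7.86 and 7.36 in M6 tumors. It was also above 8 in D2A1 replicates 1 and 3 (8.41 and 8.26) and in Met-1 replicates 1 and 4 (8.34 and 8.19), where the adipocyte score lay between -0.52 and 1.25. The skeletal muscle score, built in the same way from 12 genes, was 1.42 and 0.12 in these D2A1 tumors and -0.08 and 0.20 in these Met-1 tumors. The F-test of Cox7a1 did not pass with all tumors (adjusted p = 0.207) and did without the 11 tumors (adjusted p = 0.000162), with a range of model means of 1.29, or without 6DT1 replicate 1 alone (adjusted p = 0.0199). Cox6a2, the form of heart and skeletal muscle, was high in E0771 replicate 3 (10.17, against 7.71, 7.75 and 7.70 in the other 3 E0771 tumors) and in M6 replicate 3 (9.24, against 7.71, 7.31 and 8.04). In all other tumors it stayed between 7.31 and 8.31.

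The levels of the lists of other tissues stood beside these as follows. The skeletal muscle score (mean over 12 genes, relative to the median tumor) was 4.07 in E0771 replicate 3 and 3.39 in M6 replicate 3, the tumors with the highest Cox6a2, and at most 1.42 in any other tumor. Acta1, skeletal actin, had 12.54 and Ckm, muscle creatine kinase, 11.75 in E0771 replicate 3. The adipocyte score was above 2.5 in 6DT1 replicates 2 and 3, F311 replicate 1, E0771 replicate 1, R3T replicate 2, Met-1 replicate 2 and EMT-6 replicate 3, and Cox8b was above 8 in each of these 7 tumors, as in 7 further tumors with lower adipocyte scores. The brown fat list (4 genes, relative to each gene's mean) reached 3.15 in 6DT1 replicate 2, 1.87 in 6DT1 replicate 3, 1.85 in M6 replicate 2 and 1.54 in E0771 replicate 1, all with Cox8b above 10. Of the lists, 0 of 7 adipocyte, 1 of 12 skeletal muscle and 2 of 4 brown fat genes passed the F-test over models. The share over all genes was 70.4%. The part of these tissues in the isoform levels was not tested.

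**Figure D5:**
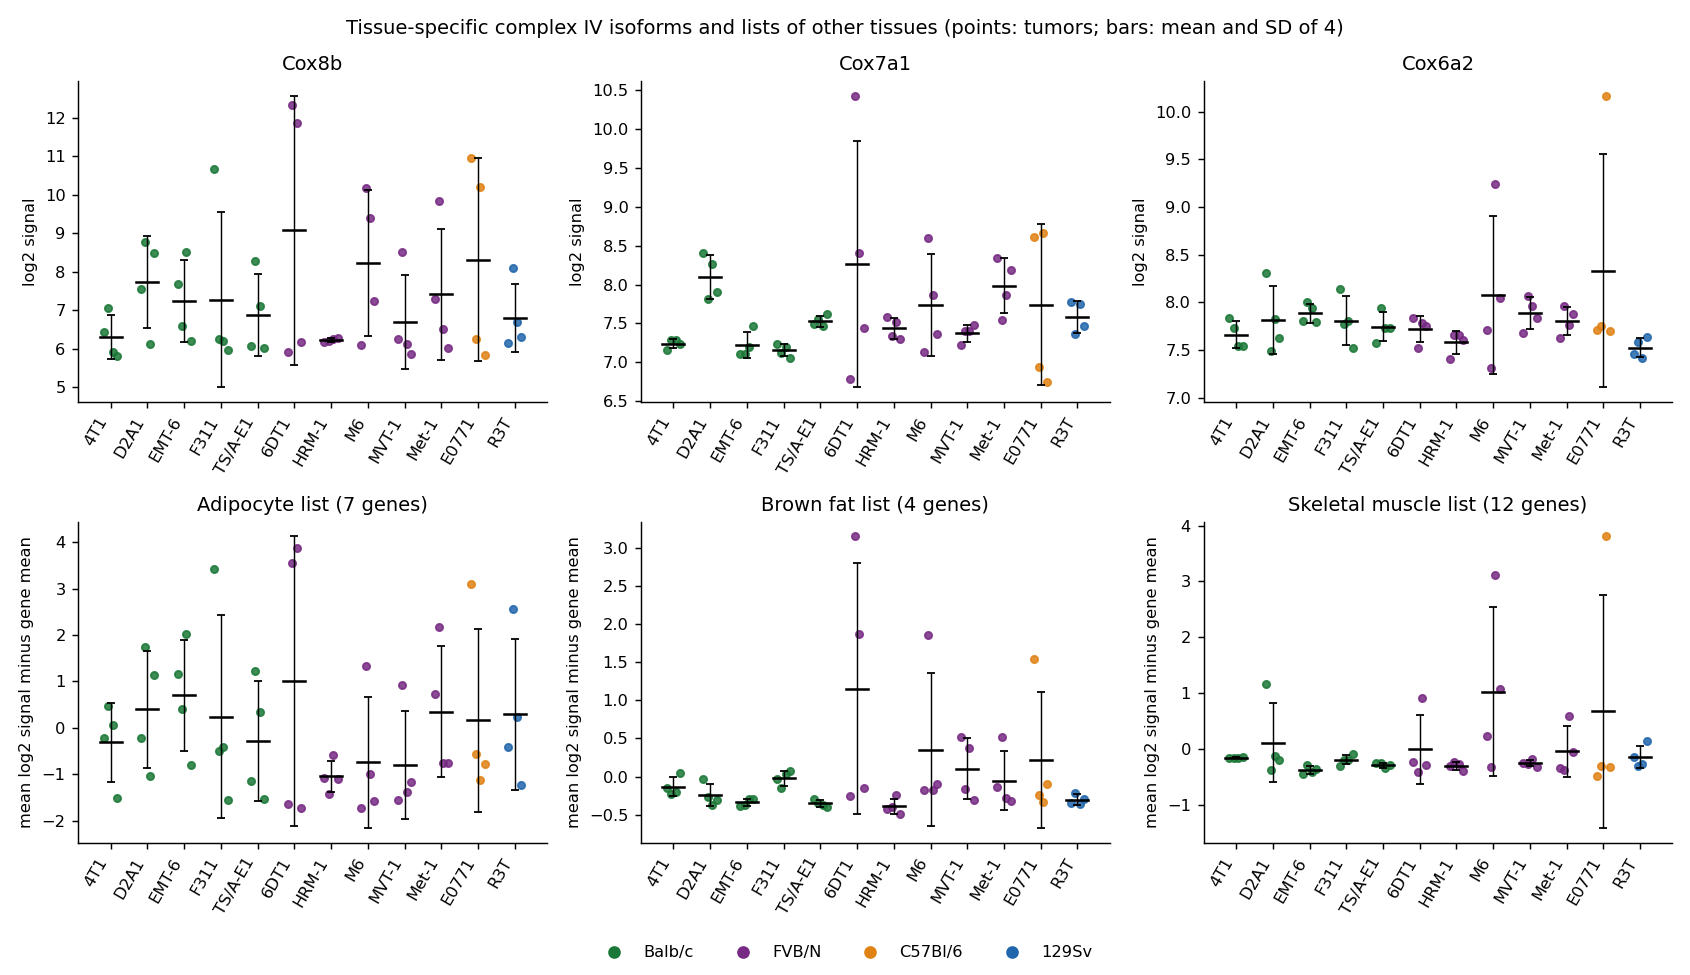
The upper row shows log2 signal of Cox8b, Cox7a1 and Cox6a2, and the lower row the mean of the adipocyte, brown fat and skeletal muscle lists relative to each gene's mean; points are tumors, bars the mean and SD of the 4 tumors of a model, and colors the strain. Cox8b is high in 6DT1 replicates 2 and 3 (12.33 and 11.87), which also lead the adipocyte list, and Cox6a2 in E0771 replicate 3 and M6 replicate 3 (10.17 and 9.24), which lead the skeletal muscle list.

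Cox4i2, a form of complex IV subunit 4 known from lung and for its response to low oxygen, was highest in M6 tumors, with 8.63, 7.95, 8.60 and 8.57 there, against 7.49 to 8.25 (median 7.92) elsewhere (0.54 ± 0.08, SE, adjusted p = 4.72e-07). It was lowest in E0771 tumors, at 7.81, 7.61, 7.49 and 7.58 (-0.35 ± 0.08 against the other models, SE, adjusted p = 0.000391). Its ubiquitous counterpart Cox4i1 was highest in 6DT1 (10.95) and lowest in F311 (10.30). Ndufa4l2, a paralog of Ndufa4 induced by low oxygen, was highest in 6DT1 (7.93) and lowest in Met-1 (6.99; F-test, adjusted p = 0.00689), while Ndufa4 itself was highest in Met-1 (10.20) and lowest in F311 (9.22). Cox7a2l, known for its part in joining complexes III and IV, was highest in 6DT1 (9.23) and lowest in D2A1 (8.65), but its second cluster correlated with the first by only 0.687 over the 48 tumors and was lowest in Met-1. The clusters of the other members with several correlated by at least 0.91. The testis forms Cox6b2, Cox7b2 and Cox8c had model means of at most 6.82, 5.15 and 6.57, and only Cox6b2 passed the F-test (adjusted p = 0.0047).

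The other genes of mitochondrial respiration were counted in the same fits. In the F-test, which 70.4% of all genes passed, all 40 assembly factors, 13 regulators of mitochondrial genes, 14 genes of the TCA cycle and 2 electron carriers passed. So did 76 of 77 genes of the mitochondrial ribosome and 8 of 11 of glycolysis. In 6DT1 tumors, where 15.6% of all genes were higher and 19.9% lower, 11 of 14 TCA genes were higher and none lower. Their median difference was 0.37, whereas 7 of 77 genes of the mitochondrial ribosome were higher and 26 lower. Without the 11 tumors these counts were 4 higher and 2 lower for the TCA genes and 8 higher and 18 lower for the ribosome. The shares of all genes were then 16.4% higher and 19.2% lower. Cs, citrate synthase, had 11.64, 12.23, 12.23 and 11.52 in the 4 6DT1 tumors, with the 2 fat-rich tumors high. Ppargc1a, the coactivator PGC-1alpha that drives mitochondrial genes, had 5.48, 8.40, 7.92 and 5.38 in these tumors. It had 9.65, 7.57, 9.49 and 9.52 in Met-1 tumors and 8.76, 8.90, 7.89 and 9.45 in M6 tumors. Of the 82 members, 31 were higher and 4 lower in Met-1 tumors (all genes, 14.6% and 17.2%). In M6 tumors 8 were higher and 23 lower (all genes, 18.9% and 17.7%). Of the 13 regulators, 1 was higher and 4 lower in Met-1 tumors, and 8 higher and 2 lower in M6 tumors. The relation of Ppargc1a to the members was not tested.

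In Met-1 tumors, where 14.6% of all genes were higher and 17.2% lower, 17 of 77 ribosomal genes were higher and 19 lower. There 10 of 40 assembly factors were higher and 7 lower, and 4 of 14 TCA genes higher and 2 lower. Without the 11 tumors the ribosomal genes turned to 25 higher and 16 lower (all genes, 19.5% and 23.8%). The assembly factors then had 15 higher and 7 lower, and the TCA genes 7 higher and 2 lower. In 4T1 tumors each of these lists had more members lower than higher. There 8 of 14 TCA genes, 31 of 77 ribosomal genes and 16 of 40 assembly factors were lower and 0, 5 and 2 higher. The shares of all genes in 4T1 tumors were 12.8% lower and 11.8% higher. In HRM-1 tumors 38 of 77 ribosomal genes were higher and 1 lower (all genes, 14.8% and 10.1%). Of the 82 respiratory chain members, 14 were higher and 5 lower there. Without the 11 tumors these members had 28 higher and 5 lower (all genes, 18.9% and 16.7%). In E0771 tumors 29 ribosomal genes and 15 assembly factors were higher, with 9 and 3 lower. In the same tumors 12 respiratory chain members were higher and 20 lower (all genes, 19.8% and 17.8%). Differences between the lists were not tested.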

How the data were processed

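The authors deposited a table of log2 signal for 35556 transcript clusters of an Affymetrix Mouse Gene 1.0 ST array in 48 tumors, labelled as 4 biological replicates of each of 12 models. Neither its normalization nor its software or genome build is stated in the labels or the methods (not given in the sources used here), so that a scale difference between arrays could move many genes together. Gene names came from the platform's annotation: 21789 clusters named 1 gene, 1621 several and 12146 none, which left 19938 genes, each taken by its cluster with the highest mean (17 members had several). All 82 members matched RefSeq symbols. Arrays have no depth, and their number limits the precision.

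Models were compared with limma 3.58.1 in R 4.3.3 (an F-test over 12 models, then each model against the mean of the other 11), with Benjamini-Hochberg adjustment over all genes and a threshold of 0.05. Balb/c and FVB/N were compared over 5 model means each, and a single gene also by an exact permutation test. A complex level averages its members' log2 signals, each relative to the gene's mean over all tumors. The members and lists were chosen with earlier results of these data known. Values are given for Ndufs5, the widest and narrowest members of each complex, up to 2 members that rose and 2 that fell most in each model, the isoforms and complex II; all other members were counted. Other members named were chosen after their values were seen. Alternatives were quantile normalization, median centering, averaging all clusters of a gene, dropping the dimmest 30% of genes, a trended or robust prior, a replicate block, leaving out single tumors or models, leaving out tumors rich in other tissues, a random block for the model, and the methods' one-way test and t-test. The fits were tested on simulated data. The split of the list counts without those rich tumors was chosen after seeing the data. Promoters came from RefSeq (GRCm38.p6) and were read with Python 3.11.15. Protein sequences were not used here.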

Additional observations from a re-analysis of the deposited data

Results flagged for a closer look

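In 252 groups of 4 tumors of a model (the complex levels, the named isoforms and leading members), 25 values in 14 tumors stood apart from the other 3 of their group. Chance flags about 1 in 20 groups.

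Tumors rich in other tissues held several of these values. Met-1 replicate 2 stood apart in the level of complex I (-0.11, against 0.17 to 0.21 in the others), in Sdhd (10.01, against 10.45 to 10.46) and in Atp5h (11.75, against 12.32 to 12.43). E0771 replicate 1 stood apart in complex III (0.17, against -0.24 to -0.17), complex V (0.084, against -0.12 to -0.10) and Sdha (11.7, against 10.89 to 11.02). F311 replicate 1 stood apart in complex IV (0.15, against -0.20 to -0.14), Cox8b (10.68, against 5.96 to 6.24) and Ndufs5 (8.10, against 9.01 to 9.09). E0771 replicate 3 had 10.17 for Cox6a2, against 7.70 to 7.75, and R3T replicate 2 had 10.92 for Sdha, against 10.74 to 10.76.

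Tumors below the limit for other tissues held the rest. D2A1 replicate 1 was low in complex III (-0.18, against -0.03 to -0.02), complex V (-0.038, against 0.05 to 0.06), Sdhd (10.003, against 10.262 to 10.28) and Atp5h (11.25, against 11.36 to 11.37). MVT-1 replicate 4 was high in complex I (-0.018, against -0.09 to -0.08), complex V (0.10, against -0.05 to -0.03) and Atp5h (11.45, against 11.26 to 11.29). F311 replicate 4 was low in complex III (-0.14, against -0.05 to -0.04) and TS/A-E1 replicate 2 was high in it (0.10, against -0.01 to 0.00). M6 replicate 2 had 7.95 for Cox4i2, against 8.57 to 8.63, and MVT-1 replicate 2 had 8.51 for Cox8b, against 5.87 to 6.26. Ndufa1 in D2A1 replicate 2 (7.88, against 7.67 to 7.70), Sdhc in HRM-1 replicate 2 (10.90, against 11.004 to 11.024) and Sdhd in 4T1 replicate 2 (10.08, against 10.11 to 10.11) also stood apart.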

How the results depend on the processing

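Leaving out 1 tumor gave 74 to 77 members past the F-test, 14 to 31 called in 4T1, 16 to 29 in D2A1, 8 to 18 in EMT-6, 12 to 27 in F311, 8 to 16 in TS/A-E1, 29 to 49 in 6DT1, 12 to 21 in HRM-1, 23 to 35 in M6, 10 to 17 in MVT-1, 22 to 40 in Met-1, 23 to 34 in E0771 and 16 to 29 in R3T. The larger part turned to higher in MVT-1 without replicate 3 (10 called, 6 higher and 4 lower) and in E0771 without replicate 3 (23 called, 12 higher and 11 lower). Other counts that fell by over 1.5 times were 17 in 4T1 without replicate 3 and 17 in R3T without replicate 4. Leaving out 1 model gave 0 to 2 members between Balb/c and FVB/N. Without the 11 tumors rich in other tissues, 41 members were called in D2A1, 27 in EMT-6 (18 higher and 9 lower, a turn of direction), 27 in TS/A-E1, 33 in HRM-1 and 29 in MVT-1. Median centering gave 32 in E0771 (22 higher and 10 lower), a turn to shares near those of all genes (26.9% higher and 11.9% lower). Quantile normalization gave 55 in 6DT1 (53 higher and 2 lower) and 13 in MVT-1 (6 higher and 7 lower). The share of all genes called was not worked out for quantile normalization, the random and replicate blocks, the t-test or single tumors or models left out. Counts under those settings therefore cannot be set against all genes. Between Balb/c and FVB/N the model as a random block gave 5 members (1 higher and 4 lower), and with a replicate block 3 (1 higher and 2 lower). Ndufs5 was the higher one in both, by 1.43, and the members added had the same sign as in the main fit. The methods' t-test gave 0. The cause of these changes in the counts was not tested. Without the 11 tumors Cox7b2 passed the F-test (adjusted p = 0.00306), as without 6DT1 replicate 3. Of 48 named model contrasts, 382 of 384 values under other settings and 2291 of 2304 with 1 tumor left out kept direction and call, the others lost the call, and none turned. Ndufs5 between Balb/c and FVB/N lost its call in the methods' t-test (adjusted p = 0.0519) and without EMT-6, M6 or MVT-1. Calls lost with single tumors left out were those of Ndufb9 in 4T1, Ndufa9 in F311, Atp5md and Ndufa1 in HRM-1, Ndufa4 in MVT-1 and Ndufs5 in TS/A-E1, Met-1 and R3T.

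With a replicate block the F-test called 75 members and the contrasts 27 in 4T1, 23 in D2A1, 13 in EMT-6, 22 in F311, 13 in TS/A-E1, 40 in 6DT1, 17 in HRM-1, 29 in M6, 13 in MVT-1, 35 in Met-1, 32 in E0771 and 27 in R3T. At the median, tumors of the same number did not deviate together (correlation 0.0197 over 264 pairs, lowest -0.475, against 0.00182 over 792 other pairs). A median over all pairs cannot show whether the tumors of some models were paired by number.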
